A study of Xenopus laevis with 4 samples.

Results

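The genes described here encode mitochondrial ribosomal proteins, the protein import machinery of mitochondria, and a small set of factors for mitochondrial DNA and translation. They were chosen by gene symbol alone: every probe set whose single symbol in the platform annotation begins with mrpl, mrps, timm or tomm followed by a number, or is tfam, polg, polg2, twnk, tufm, tsfm, gfm1 or gfm2. This gave 80 gene symbols of 11295 on the array, read by 96 of the 16745 probe sets tested. Of the 80 symbols, 32 were mrpl, 20 mrps, 17 timm and 5 tomm, while 4 belonged to mitochondrial DNA upkeep (tfam, polg, polg2, twnk) and 2 to translation (gfm1, tsfm). The genes tufm and gfm2 had no probe set under those names and are not analysed here.

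Transcripts of Xenopus laevis whole skins, pooled 20 to a sample, were hybridised to Affymetrix arrays. One set of embryos received SP600125, which blocks JNK (c-Jun N-terminal kinase) at its ATP site, from stage 14 until collection at stage 24 (2 arrays), and the controls were untreated, with no vehicle named, and collected at the same stage (2 arrays). All embryos were kept at 15 °C, and the labelled dose was 100 mM, a unit the data could not check. Since the labels name no separate clutches or cultures for the replicates, a p-value measures only the spread among these 4 samples, which may be technical, and so few arrays limit all precision.

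Mitochondria carry a small genome of their own, read out by a dedicated ribosome whose RNA is mitochondrial and whose proteins are all encoded in the nucleus. Those proteins, like nearly all others of the organelle, enter through the TOM complex of the outer membrane and the TIM complexes of the inner membrane, with small Tim chaperones escorting membrane proteins across the space between. The genome itself is packaged by Tfam, unwound by the helicase Twinkle (twnk) and copied by the polymerase Polg with its accessory subunit Polg2. In amphibian skin, ionocytes are known as mitochondria-rich cells. Whole skins hold several cell types, so a smaller share of a cell type cannot be told apart from less RNA per cell.

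Before any comparison, the arrays themselves differed by replicate. Within the SP600125 group, replicate 2 lay above replicate 1 for 78 of the 96 probe sets, with a median gap of 0.33 log2. Within the controls the same held for 81 of 96, with a median gap of 0.38 log2. Over all probe sets the corresponding medians were 0.056 in the SP600125 group and 0.041 in the controls. Replicate 2 lay above replicate 1 for 55.8% of all probe sets in the SP600125 group and 54.1% in the controls. For the 96 these shares were 81.25% and 84.4%, and for cytosolic ribosomal proteins 82.1% in both groups. Without regard to sign, the median gaps of the 96 were 0.38 and 0.41 log2, against 0.34 and 0.31 over all probe sets. Epidermal markers were bright on every array, with summed levels of 54460 and 52245 in the SP600125 arrays, against 52610 and 47473 in the controls (linear RMA units, 18 symbols of 10 genes found out of 14 listed). Markers of tissue under the skin were also present, and those of muscle and of endoderm, notochord and blood were lower after SP600125. The 19 muscle and somite symbols (15 of 16 genes found, 17 symbols with lower means) summed to 2486 and 3080 in the SP600125 arrays, against 11297 and 6115 in the controls. The 17 symbols of endoderm, notochord and blood (12 of 13 genes, 16 symbols with lower means) summed to 1966 and 2821 in the SP600125 arrays, against 4158 and 5363 in the controls. Dim symbols, with a mean log2 level under 5, numbered 4 and 8 in these lists. Neural markers, a further list of such tissue, overlapped between groups, at 4531 and 4970 in the SP600125 arrays, against 7234 and 4521 in the controls.

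**Figure D1:**
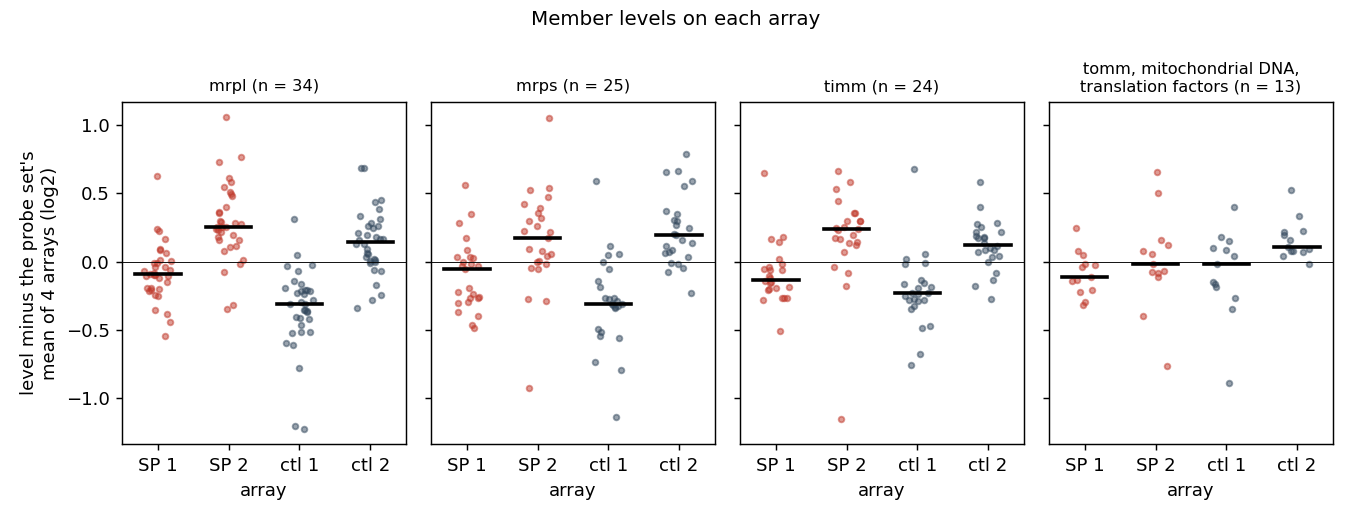
Level of each of the 96 probe sets on each array, minus that probe set's mean over the 4 arrays (log2, vertical axis), in 4 panels by gene group; SP 1 and SP 2 are the SP600125 arrays, ctl 1 and ctl 2 the controls, points are probe sets and bars medians. In the mrpl, mrps and timm panels replicate 2 sits above replicate 1 in both groups, and for mrpl the medians are −0.09 and 0.25 in the SP600125 arrays, against −0.31 and 0.15 in the controls.

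No gene of the set passed the test for SP600125. With limma, and p adjusted by Benjamini-Hochberg across the 16745 probe sets, 0 of the 96 had an adjusted p under 0.05, the background being 0% (0 of 16745), and each adjusted p was 1. At an unadjusted p under 0.05 the count was 0 of 96 as well, where 0.699% of all probe sets were higher and 0.908% lower. The differences were small: the widest was 1.50-fold, in mrps30.S, and 4 of 96 reached 0.5 log2 in either direction, against a background of 10.2%. For 79 of the 96 (82.3%) the larger of the 2 within-group SDs exceeded the difference, as it did for 78.7% of all probe sets.

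The direction of the means leaned upward and depended on which arrays entered. The mean was higher after SP600125 for 68 probe sets and lower for 28 (70.8% higher, background 52.8%), and the median difference was 0.12 log2 beside 0.014 over all probe sets. Both SP600125 arrays lay above both controls for 8 of 96 probe sets (8.33%, background 11.9%) and below them for 6 (6.25%, background 9.25%), shares close to or under the background. Taken one SP600125 array against one control at a time, the median of the 96 was 0.18 for SP600125 replicate 1 and 0.44 for replicate 2 against control replicate 1. Against control replicate 2 it was −0.22 for SP600125 replicate 1 and 0.058 for replicate 2. The median turned to −0.10 without control replicate 1 and to −0.044 without SP600125 replicate 2, and it was 0.30 when control replicate 2 was left out and 0.27 when SP600125 replicate 1 was.

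**Figure D2:**
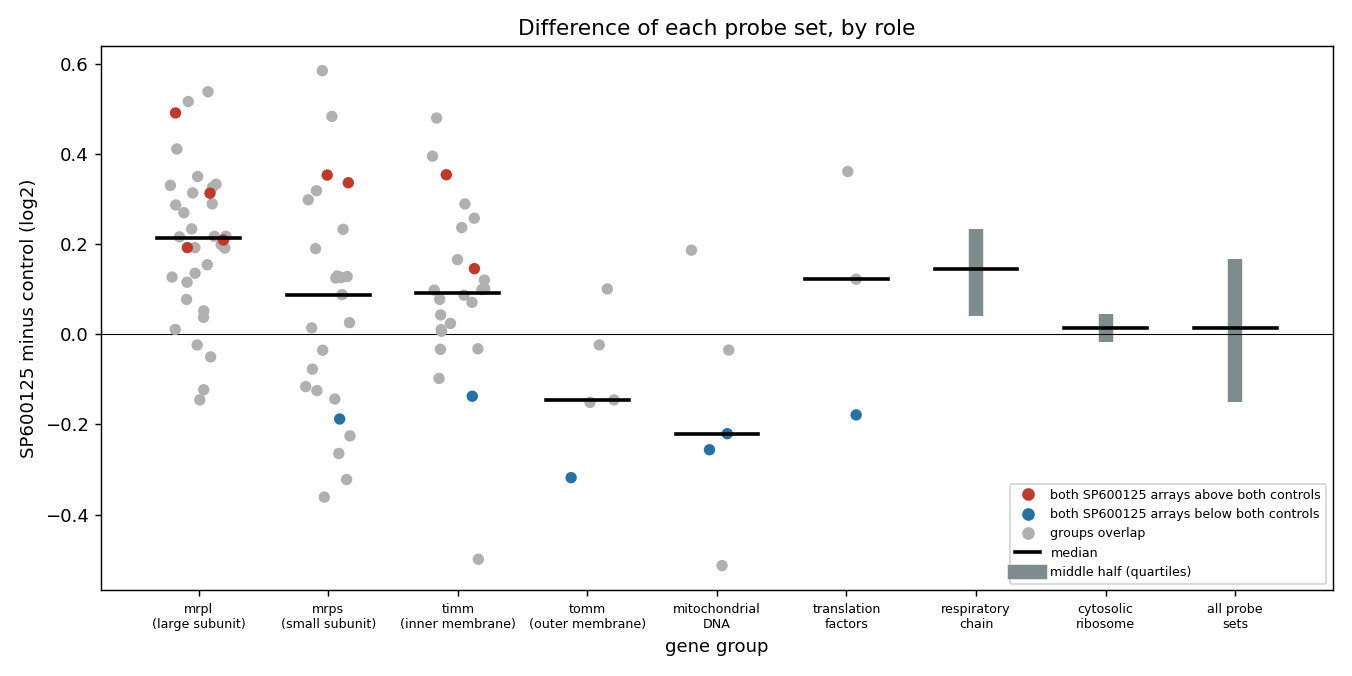
Difference of each probe set, SP600125 minus control (log2, vertical axis), by gene group; points are coloured by whether the 2 groups overlap, black bars are medians, and grey bars span the quartiles of respiratory chain subunits, cytosolic ribosomal proteins and all probe sets. The mrpl points lie mostly above 0, with a median of 0.21, while the medians of the tomm and mitochondrial DNA groups are −0.15 and −0.22.

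Transcripts for proteins of the large mitochondrial ribosomal subunit leaned upward most evenly. Of 34 mrpl probe sets, 30 had higher means after SP600125 (88.2%, background 52.8%), with a median difference of 0.21 log2 and a range of −0.15 to 0.54. None had both SP600125 arrays below both controls, and 4 had both above (11.8%, background 11.9%). Leaving out control replicate 1 brought the count of higher means to 16 of 34, and leaving out SP600125 replicate 2 to 17, whereas it was 33 when control replicate 2 was left out. The summed muscle markers, higher in both controls, and the gap between replicates 1 and 2 stood beside this lean, and their part in it was not tested.

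The 4 separated mrpl genes were mrpl52, mrpl32, mrpl9 and mrpl40. The level of mrpl52.S, a protein of the large subunit with no bacterial counterpart, read 8.29 and 8.79 (log2) in the SP600125 arrays, against 8.08 and 8.02 in the controls. Its difference was 0.49 ± 0.26 log2 (SE, limma, adjusted p = 1), or 1.41-fold, and the treated arrays differed from each other by more than the lower of them did from the controls. It was 0.24 without SP600125 replicate 2 and 0.75 without SP600125 replicate 1. The level of mrpl32.L, whose protein in yeast and mouse joins the ribosome once its targeting sequence has been cut off, was 5.19 and 5.03 in SP600125 skins, against 4.88 and 4.71 in controls. This probe set was dim, with a mean of 4.95 over the 4 arrays, and the groups were separated by a margin no wider than the gap between replicates.

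Steadier values were found for mrpl9.S, whose bacterial relative is a long protein at the surface of the large subunit. It read 9.95 and 9.97 in the SP600125 arrays, against 9.71 and 9.79 in the controls, a difference of 0.21 ± 0.19 log2 (SE). The brighter probe set of mrpl40.S read 8.77 and 8.94 in SP600125 skins, against 8.56 and 8.76 in controls, so that the nearest arrays of the 2 groups almost met. Its other probe set read 5.65 and 7.25 in SP600125 skins, against 4.99 and 6.88 in controls, and there the arrays overlapped, with a wide gap between replicates.

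The widest mrpl difference belonged to mrpl53.L, at 0.54 ± 0.76 log2 (SE). It read 4.75 and 5.67 in the SP600125 arrays, against 3.72 and 5.62 in the controls, so that a low control replicate 1 set the mean apart, and without that array the difference turned to −0.42. The mrpl41 gene, whose protein is specific to the mitochondrial ribosome, was measured for both homeologs, the .L and .S copies of a gene in this allotetraploid frog. The level of mrpl41.L was 8.93 ± 0.14 after SP600125 and 8.73 ± 0.15 in controls (SD, n = 2 each). That of mrpl41.S was 4.01 ± 0.06 after SP600125 and 4.13 ± 0.53 in controls, a faint signal whose 2 groups overlapped. The remaining mrpl probe sets, among them mrpl12.L for the stalk that recruits translation factors, lay between −0.15 and 0.41 log2 apart from the dimmer mrpl40.S probe set at 0.52, and overlapped between groups.

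The genes named for the small subunit were more mixed. They were grouped by symbol, not by structure, and include mrps30, which mammalian structures place in the large subunit. Whether every other mrps symbol names a protein of the small subunit was not checked. In the counts below, mrps30.S sets the upper end of the range and mrps30.L is among those separated upward. Of 25 mrps probe sets, 15 had higher means after SP600125 and 10 lower (60.0% higher, background 52.8%), with a median of 0.088 log2 and a range of −0.36 to 0.59. Both SP600125 arrays lay above both controls for 2 and below them for 1 (8% and 4%, background 11.9% and 9.25%). Leaving out control replicate 1 gave a median of −0.16, and leaving out SP600125 replicate 2 one of −0.068. After cyclic loess normalization the median was 0.037, with 13 higher and 12 lower.

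The 2 homeologs of mrps30 both had higher means. The protein carries a small subunit name, although mammalian structures place it in the large one. The level of mrps30.L was 8.14 and 7.77 in the SP600125 arrays, against 7.47 and 7.77 in the controls, where the nearest arrays met to within rounding. The level of mrps30.S was 7.60 and 9.11 in the SP600125 arrays, against 6.92 and 8.62 in the controls. Its difference of 0.59 ± 0.81 log2 (SE) was the widest of all 96, the replicates of each group lay farther apart than the group means, and it turned to −0.26 without control replicate 1 and to −0.17 without SP600125 replicate 2.

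The 3 probe sets of mrps33.L, for a short protein of the small subunit, went different ways. The brightest read 9.53 and 9.89 in SP600125 skins, against 9.22 and 9.49 in controls, a difference of 0.35 ± 0.24 log2 (SE), and a second one differed by 0.30. The faintest read 8.04 and 8.24 in SP600125 skins, against 8.35 and 8.31 in controls, with both SP600125 arrays below both controls. The gene mrps2, chosen after its values were seen, had lower means in all its probe sets. The difference was −0.26 and −0.32 log2 for mrps2.L and −0.36 for mrps2.S, and each overlapped between groups. These low means rested on single arrays. The level of mrps2.S was 9.33 and 7.83 in the SP600125 arrays, against 9.35 and 8.53 in the controls. The brighter mrps2.L probe set read 7.46 and 7.72 in the SP600125 arrays, against 7.40 and 8.31 in the controls. Its relative in bacteria is also a protein of the small subunit.

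**Figure D3:**
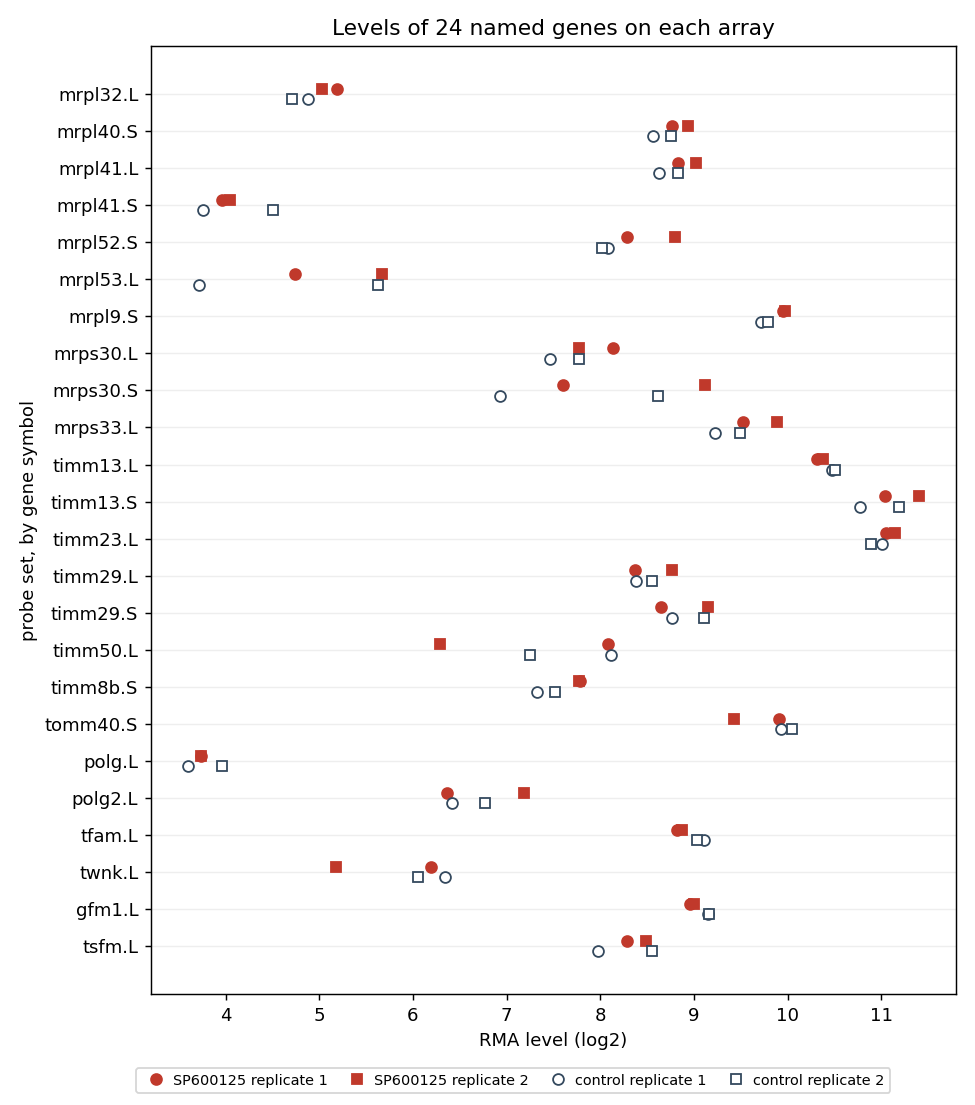
RMA level (log2, horizontal axis) of 24 named genes on each array, 1 probe set per gene and ordered by gene group; filled red marks are SP600125 arrays, open marks controls, circles replicate 1 and squares replicate 2. The tfam.L and gfm1.L marks form tight groups with both SP600125 arrays to the left of both controls, while in mrps30.S and mrpl53.L replicates of 1 group lie farther apart than the group means.

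Import genes of the inner membrane and the intermembrane space lay slightly higher. Of 24 timm probe sets, 19 had higher means (79.2%, background 52.8%), with a median of 0.093 log2, and the groups were separated upward in 2 and downward in 1 (8.33% and 4.17%, background 11.9% and 9.25%). After cyclic loess normalization the median was 0.049, with 16 higher. The count of higher means was 6 of 24 when control replicate 1 was left out, and 9 when SP600125 replicate 2 was. Among the small Tim chaperones (timm8b, timm9, timm10, timm10b, timm13) 7 of 8 probe sets were higher (87.5%, background 52.8%), with a median of 0.12. The groups were separated upward in 1 and downward in 1 (12.5% each, background 11.9% and 9.25%). For SP600125 replicate 1 minus control replicate 2 their median was −0.33, with 1 of 8 above 0. The other timm genes had 12 of 16 probe sets higher (75%), with a median of 0.093.

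The small Tim gene timm8b, whose relatives in yeast and mammals form a chaperone complex with the timm13 protein, had higher means for both homeologs. The level of timm8b.S was 7.78 and 7.77 in the SP600125 arrays, against 7.33 and 7.51 in the controls, a difference of 0.35 ± 0.20 log2 (SE) or 1.28-fold. That of timm8b.L was 8.84 and 9.42 in the SP600125 arrays, against 8.13 and 9.17 in the controls, with overlap. The replicates of the .S copy lay closer together than those of the .L copy in both groups.

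The partner gene timm13 showed homeologs of opposite sign. The level of timm13.L was 10.32 and 10.38 in SP600125 skins, against 10.47 and 10.50 in controls, while timm13.S read 11.04 and 11.40 in SP600125 skins, against 10.78 and 11.19 in controls. The differences were −0.14 ± 0.19 and 0.24 ± 0.27 log2 (SE), a gap of 0.37 between the 2 copies, and neither passed the test. The gap leaned on single arrays: with control replicate 1 left out the difference of the .S copy came to 0.029, and with SP600125 replicate 2 left out to 0.058. Cross-binding of probes between the copies is possible and was not tested. The homeologs of timm29, in human cells a subunit of the translocase for carrier proteins, differed by 0.098 (.L) and −0.033 (.S), inside their spread.

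In the presequence translocase, the channel subunit timm23.L read 11.05 and 11.15 in the SP600125 arrays, against 11.01 and 10.89 in the controls. Its difference was 0.15 ± 0.19 log2 (SE), with 0.40 and 0.024 in the other 2 probe sets. The receptor subunit timm50.L had the widest timm difference, at −0.50 ± 0.72, with 8.08 and 6.29 in the SP600125 arrays, against 8.11 and 7.25 in the controls. That value rested on 1 low array, and without SP600125 replicate 2 it turned to 0.40. The motor tether timm44.S differed by 0.0069, and the paired channel subunit timm17a by 0.099 in its .L copy. The probe sets of timm17a.S differed by 0.010, −0.032 and −0.098.

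The outer membrane genes leaned the other way. Of 5 tomm probe sets, 4 had lower means after SP600125 (background 47.2%), with a median of −0.15 log2. The median stayed below 0 when any single array was left out. It was −0.020 without SP600125 replicate 1, −0.080 without SP600125 replicate 2, −0.23 without control replicate 1 and −0.051 without control replicate 2. For SP600125 replicate 2 minus control replicate 1, however, it was 0.091, with 3 of 5 above 0. The remaining pairs of arrays gave −0.022, −0.14 and −0.085. In 5 of 5 probe sets the larger within-group SD exceeded the difference (background 78.7%). The channel protein tomm40.S read 9.91 and 9.43 in the SP600125 arrays, against 9.93 and 10.04 in the controls. Here both SP600125 arrays lay below both controls by a margin that all but vanished for replicate 1, and the difference was −0.32 ± 0.25 (SE). It was −0.080 without SP600125 replicate 2 and −0.56 without SP600125 replicate 1. Its homeolog tomm40.L differed by −0.023. The receptors tomm22.L and tomm70.S differed by −0.15 each, and the presequence receptor tomm20 was the one with a higher mean, at 0.10, all with overlap.

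Among the factors for mitochondrial DNA and translation, tfam.L and gfm1.L had groups that were apart with little spread between replicates. Elsewhere the same was seen in mrpl9.S, which was higher after SP600125, and timm13.L, which was lower. The groups of timm8b.S, higher after SP600125, were apart too, with SDs of 0.0084 in the SP600125 group and 0.13 in the controls. Of 5 probe sets for mitochondrial DNA genes, 4 had lower means (background 47.2%), with a median of −0.22 log2, and the groups were separated downward in 2 (40.0%, background 9.25%), both of them probe sets of tfam. The median stayed between −0.26 and −0.20 when each array was left out in turn. With 1 probe set per gene the median was −0.13, and 3 of 4 had lower means. The groups were then separated downward in 1 of 4 (25%, background 9.10%).

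The brighter tfam.L probe set, for the protein that coats and compacts mitochondrial DNA, read 8.82 and 8.87 in the SP600125 arrays, against 9.11 and 9.03 in the controls. The other, with the same stem in its probe set name, read 7.68 and 7.72 in SP600125 skins, against 8.01 and 7.90 in controls. Both placed the SP600125 arrays below the controls, with differences of −0.22 ± 0.19 and −0.26 ± 0.19 log2 (SE, limma, adjusted p = 1 each), or 1.17-fold and 1.19-fold lower. The SDs of the brighter one were 0.034 in the SP600125 group and 0.055 in the controls (n = 2 each), and the limma error is wider because it draws on the variance of all probe sets.

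The helicase gene twnk.L differed by −0.51 ± 0.41 log2 (SE). It read 6.19 and 5.18 in SP600125 skins, against 6.35 and 6.05 in controls, so that the low mean came from SP600125 replicate 2, and the difference was −0.0060 without that array and −1.02 without SP600125 replicate 1. The polymerase gene polg.L was dim on every array and differed by −0.035, while its accessory subunit polg2.L, at 6.37 and 7.19 in SP600125 skins against 6.42 and 6.77 in controls, differed by 0.19 ± 0.36. Neither separated the groups.

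For translation, the elongation factor gfm1.L, which moves the ribosome along the messenger, read 8.95 and 9.004 in the SP600125 arrays, against 9.15 and 9.16 in the controls. Its difference was −0.18 ± 0.19 (SE), and it lay between −0.20 and −0.15 with each array left out. The exchange factor tsfm.L went the other way in both probe sets, at 0.12 and 0.36 log2, with overlap.

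Copies of the same gene were compared, although agreement between them is no independent check. All were read on the same 4 arrays. Some probe sets of a symbol, as for tfam.L and mrps2.L, share the stem of their name and may read the same sequence. Of 11 symbols with more than 1 probe set, 9 had all probe sets on the same side of 0, and mrps33.L and timm17a.S had them on both sides. Of 10 homeolog pairs, 7 agreed in sign and 3 did not (timm13, mrpl41 and timm29). Counted by gene, 14 of 19 genes with more than 1 probe set lay on one side of 0.

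**Figure D4:**
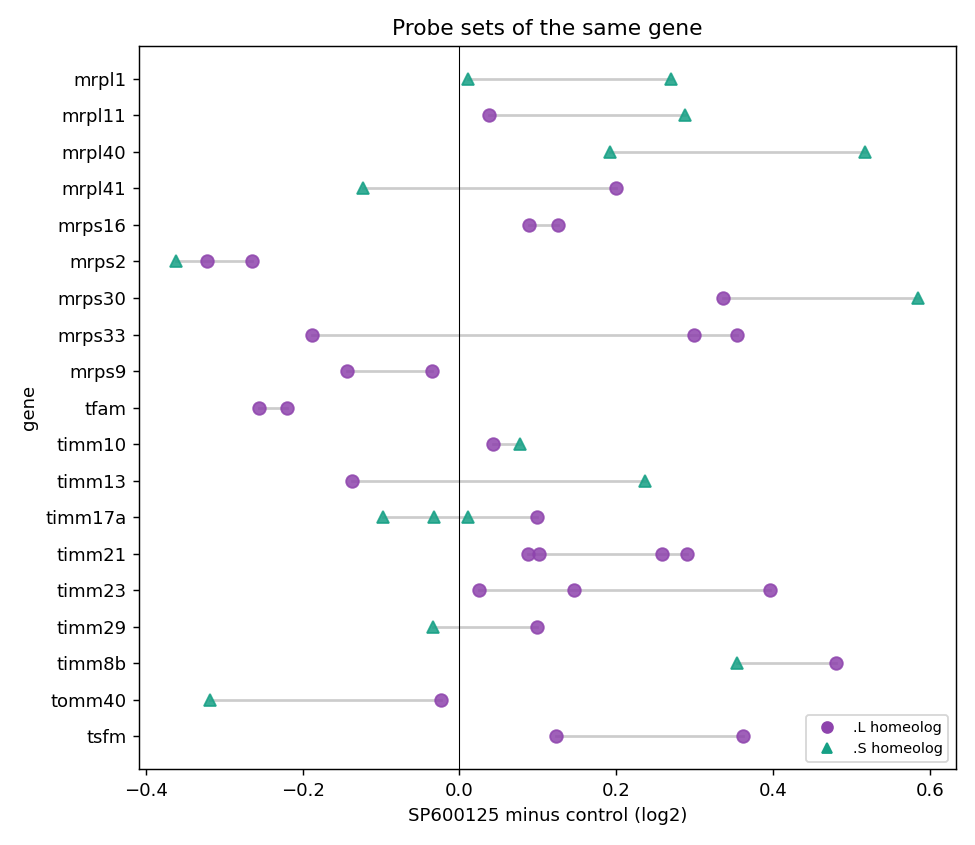
Difference, SP600125 minus control (log2, horizontal axis), of the 45 probe sets of the 19 genes with more than 1; circles are .L homeologs, triangles .S homeologs, and a grey line joins the probe sets of a gene. All marks of mrps2, mrps9, tfam and tomm40 lie below 0, and those of timm13, mrpl41, timm29, timm17a and mrps33 lie on both sides.

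Other genes of mitochondrial gene expression and import, in lists compiled with earlier results of these data known, gave 0 probe sets with an adjusted p under 0.05 and 0 with an unadjusted p under 0.05 (limma). In the list of mitochondrial aminoacyl-tRNA synthetases, which charge the tRNAs for this ribosome, 8 of 21 genes were measured, 5 with lower means (median −0.14). The list also holds genes that encode no synthetase, and of these qrsl1.L was measured, with a difference of 0.18 log2. In 4 of these 8 both SP600125 arrays lay below both controls (50.0%, background 9.25%), and in 0 above. Against control replicate 1, however, the median of the 8 was −0.018 for SP600125 replicate 1 and 0.031 for replicate 2. Against control replicate 2 it was −0.33 for SP600125 replicate 1 and −0.27 for replicate 2. The leucine enzyme lars2.L read 7.40 and 7.18 in SP600125 skins, against 7.75 and 7.94 in controls, a difference of −0.55 ± 0.21 log2 (SE). The methionine and cysteine enzymes mars2.L and cars2.L each differed by −0.31. Their nearest arrays almost met, at 6.46 after SP600125 and 6.47 in controls for mars2.L, and 6.95 and 6.97 for cars2.L. The nearest arrays of the separated hars2.L read 10.01 after SP600125 and 10.02 in controls.

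Genes for replication, transcription and RNA processing of the mitochondrial genome were measured for 10 of 26 listed genes (19 probe sets, 8 higher and 11 lower, median −0.014). The RNA-binding protein lrpprc.L, which stabilises mitochondrial messengers, differed by −0.39 ± 0.21 log2 (SE), at 9.30 and 9.02 in SP600125 skins against 9.58 and 9.52 in controls. The nuclease rnaseh1.S and the tRNA-processing subunit hsd17b10.L differed by 0.48 ± 0.24 and 0.40 ± 0.21, each with both SP600125 arrays above both controls. The homeolog rnaseh1.L differed by −0.055, with overlap. The groups were separated upward in 3 probe sets and downward in 4 (15.8% and 21.1%, background 11.9% and 9.25%), and 3 of the downward ones belong to tfb1m.L, the methyltransferase of the small ribosomal RNA, which was named after its values were seen. The other 3 probe sets of tfb1m.L overlapped between groups, with differences of −0.18, 0.018 and 0.00044 log2.

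Other translation and ribosome assembly factors (11 of 27 genes, 15 probe sets) had a median of 0.057, with 9 higher and 6 lower. The pentatricopeptide protein ptcd3.L, a component of the small subunit, differed by 0.30 ± 0.23 log2 (SE), and guf1.L and ptcd1.L by −0.22 and −0.13. The groups were separated upward in 1 probe set and downward in 2 (6.67% and 13.3%, background 11.9% and 9.25%). Import partners, processing peptidases and chaperones (25 of 29 genes, 45 probe sets) had a median of −0.031, with 21 higher and 24 lower, separated upward in 6 and downward in 3 (13.3% and 6.67%). The inner membrane peptidase immp2l.L differed by 0.72 ± 0.37 log2 (SE), the oxidase gfer.L by 0.45 ± 0.30 and romo1.L, for a small inner membrane protein, by 0.39 ± 0.26. The level of immp2l.L was 5.66 and 5.51 in the SP600125 arrays, against 4.41 and 5.32 in the controls, where replicate 1 was low. The brightest romo1.L probe set differed by 0.32 and the faintest by 0.082, both with overlap. The gene chchd4.L, for the receptor that works with gfer in the intermembrane space and named after its values were seen, differed by −0.35 ± 0.25.

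The nuclear regulators (7 of 10 genes, 16 probe sets) had a median of −0.17, with 4 higher and 12 lower. Against control replicate 1 their median was −0.24 for SP600125 replicate 1 and −0.74 for replicate 2. Against control replicate 2 it was 0.31 for SP600125 replicate 1 and 0.079 for replicate 2. In 16 of 16 the larger within-group SD exceeded the difference (background 78.7%). The groups were separated upward in 0 and downward in 2 (12.5%, background 9.25%), and 7 of the 12 lower ones are probe sets of myc.L and myc.S, all with overlap. The zinc finger factor yy1.L differed by −0.33 ± 0.26 log2 (SE) in one probe set, and myc.L by −0.43 ± 0.39. In this list the median of replicate 2 minus replicate 1 was −0.31 in the SP600125 group and −0.49 in the controls, opposite in sign to the gap in the mitochondrial ribosomal and import genes.

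Set beside similar gene groups on the same arrays, the mitochondrial ribosomal and import genes and the respiratory chain subunits had means on the high side. The respiratory chain had higher means in 79 of 95 probe sets (83.2%) with a median of 0.15, and the groups were separated upward in 15 (15.8%, background 11.9%) and downward in 1 (1.05%, background 9.25%). This lean too depended on which arrays were set against each other: the median of the 95 was −0.12 for SP600125 replicate 1 minus control replicate 2 (27 of 95 above 0) and 0.46 for SP600125 replicate 2 minus control replicate 1. Cytosolic ribosomal proteins had a median of 0.013 over 134 probe sets, with 86 higher (64.2%, background 52.8%). Their groups were separated upward in 9 (6.72%, background 11.9%) and downward in 15 (11.2%, background 9.25%). No test was made between these groups, so nothing here can be called particular to one of them. Ionocyte markers, from cells rich in mitochondria, summed to 11743 and 10594 in the SP600125 arrays, against 8729 and 9275 in the controls (9 symbols of 11 listed genes, 5 higher and 4 lower, with dmrt2.L dim). Their mean log2 levels overlapped, at 9.21 and 8.82 in the SP600125 arrays, against 8.98 and 8.84 in the controls. Their part in the lean of the mitochondrial genes was not tested. Multiciliated cell markers (15 symbols of 10 genes) summed to 7278 and 5145 in SP600125 skins, against 5269 and 6550 in controls. Neural markers, of tissue under the skin, comprised 16 symbols of 11 genes. They summed to 4531 and 4970 in SP600125 skins, against 7234 and 4521 in controls. The multiciliated and the neural lists both overlapped between groups.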

How the data were processed

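The deposited values are log2 levels, 1 per probe set and array, made with affy and RMA per the submitters' processing notes, which give no version. RMA removes background, equalises the distributions of the arrays and condenses each set to 1 value, which hides a change common to most transcripts and shrinks differences at low signal. How probes were defined or filtered is not given in the sources used here. The log2 values deposited by the authors ran from 2.60 to 14.3, and array medians from 6.85 to 6.94.

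Of 16755 probe sets, 10 controls were left out. Names came from GEO's platform annotation (15445 probe sets with 1 symbol, 279 with several, 1021 with none), and 95 of the 96 selected probe sets matched a RefSeq gene table, which changed no symbol. No genome or sequence table was used here, so no coordinates or sequences are given. Groups and replicate numbers came from the sample titles.

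All 16745 probe sets were fitted with limma 3.58.1 in R 4.3.3 (SP600125 minus control, lmFit and eBayes, two-sided, 2 residual degrees of freedom), with Benjamini-Hochberg adjustment over all of them, and the fit was tested on simulated data. The simulated arrays had independent noise of constant size and no gap between replicates, unlike these arrays. That check therefore concerns the code and not the precision of the fit here. Counts and medians were made in Python 3.11.15, and figures with matplotlib 3.10.9. A named gene is shown by its probe set with the highest mean, and a gene of the further lists by that of smallest p. Genes were named if their groups did not overlap (up to 5 per direction and gene group, by p), if they belonged to the mitochondrial DNA or translation factors, if their difference was the widest of a group, or if homeologs had opposite signs (3 pairs), and up to 3 by p per further list. A few further members, given in passing, were named after their values were seen. Members, lists and this rule were chosen with earlier results of these data known. Dim means a mean log2 level under 5. The alternatives were a replicate block, dim probe sets left out, renewed quantile or cyclic loess normalization, a trended robust variance, 1 or averaged probe sets per gene, an adjusted p under 0.1, and each array left out.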

Additional observations from a re-analysis of the deposited data

How the results depend on the processing

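No setting called any probe set: the count at an adjusted p under 0.05 (limma) was 0 of 16745 and 0 of the 96 in every alternative, also at an adjusted p under 0.1. The median difference of the 96 was 0.12 log2, between 0.075 and 0.13 with another normalization, filter or probe set rule, and between −0.10 and 0.30 with each array left out in turn. It turned below 0 without control replicate 1 or SP600125 replicate 2. The median of all probe sets moved by less than 0.1 log2 under each scaling. With 3 arrays the groups separate more easily: 9 to 67 of the 96 then lay above and 10 to 32 below, against 8 and 6 with all 4. The share over all probe sets with 3 arrays is not given here, so those counts have no background. With the brightest probe set of each gene, 8 of 80 lay above (10%, background 12.3% of 11295 genes). With probe sets of a gene averaged it was 5 of 80, again with no background given. With arrays left out, 9 of the 24 named genes turned in sign: mrpl53.L (−0.42 to 1.49), mrps30.S (−0.26 to 1.43), timm50.L (−1.40 to 0.40), mrpl41.S (−0.50 to 0.25), timm29.L (−0.10 to 0.30), timm29.S (−0.28 to 0.21), polg.L (−0.22 to 0.15), polg2.L (−0.22 to 0.60) and tsfm.L (−0.16 to 0.41). The cause was not tested. A further 8 kept their sign but moved by over 1.5 times: mrpl52.S (0.24 to 0.75), mrpl40.S (0.097 to 0.29), mrpl41.L (0.096 to 0.30), mrps30.L (0.15 to 0.52), mrps33.L (0.17 to 0.53), timm13.S (0.029 to 0.44), timm23.L (0.088 to 0.20) and tomm40.S (−0.56 to −0.080), as did twnk.L. No named gene turned under the other alternatives.

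The groups share replicate numbers 1 and 2, but nothing in the labels says what a number shares. The gaps between replicates 2 and 1 correlated between the groups across probe sets (r = 0.59 over 16745, 0.77 over the 96), a description over probe sets that are not independent. With the replicate block, 0 probe sets passed and the median of the 96 stayed 0.12, as the design is balanced. The count at an unadjusted p under 0.05 was then 1063 of all probe sets (6.35%) and 2 of the 96, against 269 and 0 without it.

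Signal over background was not in the values analysed here, and 6 of the 96 probe sets had a mean log2 level under 5. Differences of the size seen here, at most 1.50-fold, passed no test with 2 arrays a group. Larger ones did not pass either: over all probe sets the differences ran from −3.33 to 3.83 log2.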
